A study of Homo sapiens with 4 samples.

Results

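Chromosome 4 held 1663 of the 39259 genes in an RNA sequencing table of MDA-MB-231 cells, an established human line of triple-negative breast cancer. A gene was placed on the chromosome when the first chromosome entry of its exons was chr4, and genes were ordered by their smallest start coordinate. Changes were described for the 413 genes (24.8%) whose FPKM, averaged over all 4 libraries, reached 1, where FPKM scales fragments by the length of the gene and the depth of the library. Over all chromosomes 29.8% of genes, 11716, passed that level. The 2 WT libraries came from wild-type cells. The other 2, labelled KO, came from cells of the same line with a knockout of mdig, also called mina53, a JmjC-domain oxygenase encoded by RIOX2. All 4 were grown in the same medium with serum, and no treatment differed between them. The labels do not say how the knockout was made, whether it is 1 clone, or whether the 2 libraries of a group came from separate cultures, so the spread within a group may be technical.

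WT replicate 2 was the shallowest library, with 22503981 assigned fragments, and the other 3 had 45173267 to 52163811. RIOX2 was at 8.60 and 8.24 FPKM in the WT libraries and at 9.23 and 9.82 FPKM in those labelled KO, a log2 change of 0.16 (SE 0.060, adjusted p = 0.0546, limma). Its RNA was therefore not lower in the libraries labelled KO, and the part of the gene that was disrupted is not given in the labels, so KO below means only that label. Among genes that mark the line, VIM of mesenchymal cells was at 2275 and 2394 FPKM in WT and at 2000 FPKM in both KO libraries. The keratin KRT18 was at 319.5 and 324 FPKM in WT and at 283.5 and 282 FPKM in KO, and KRT8 was at 235 to 254 FPKM in all 4. The epithelial genes were low and were higher in KO, CDH1 at 0.177 and 0.128 against 0.597 and 0.625 FPKM, and EPCAM at 2.15 and 1.87 against 2.64 and 2.65 FPKM. The part of these differences in the results below was not tested. The receptor genes ESR1 and PGR each had 1 fragment in 1 library and 0 in the others. ERBB2 was present at 12.7 to 14.3 FPKM.

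Chromosome 4 has a short arm that is rich in genes near its tip and a long arm with wide gene-poor stretches. Genes that lie side by side share the copy number of their DNA, its time of replication and often its chromatin state, and each still has its own promoter. A change along a chromosome can therefore be read at 2 levels: the level shared by neighbours, and the distance of a gene from its neighbours. The chromosome was picked with this contrast already known, so the calls and medians below are descriptions of these 4 libraries and are not tests.

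The change on chromosome 4 ran in blocks of neighbouring genes that were nearly all lower or nearly all higher in the KO libraries. From the short-arm tip to STX18 the genes were lower, and from GPAT3 to the long-arm end they were higher. Between these, blocks alternated. The border with the least room was the one between ABRAXAS1, a subunit of a BRCA1 complex, and GPAT3, an enzyme that starts triglyceride synthesis. The promoters of both genes are printed because they stand on opposite sides of that border, 0.0505 Mb apart. Those of TRIML2 and SHISA3 are printed because these 2 genes lay furthest above their neighbours and second furthest below. Each runs 5′ to 3′ from 250 bases before to 50 bases after the annotated start, with every CG pair in capitals, from RefSeq on GRCh38.p14 (chr4:83485051-83485350, minus strand; chr4:83535857-83536156, plus strand; chr4:188109554-188109853, minus strand; chr4:42397238-42397537, plus strand).

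ABRAXAS1: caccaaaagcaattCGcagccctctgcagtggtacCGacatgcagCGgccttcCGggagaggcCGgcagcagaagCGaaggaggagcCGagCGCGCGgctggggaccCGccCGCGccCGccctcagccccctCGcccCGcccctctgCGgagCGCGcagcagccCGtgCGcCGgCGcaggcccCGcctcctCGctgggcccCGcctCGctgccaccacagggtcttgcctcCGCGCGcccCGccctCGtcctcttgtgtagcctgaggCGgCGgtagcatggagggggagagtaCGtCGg
GPAT3: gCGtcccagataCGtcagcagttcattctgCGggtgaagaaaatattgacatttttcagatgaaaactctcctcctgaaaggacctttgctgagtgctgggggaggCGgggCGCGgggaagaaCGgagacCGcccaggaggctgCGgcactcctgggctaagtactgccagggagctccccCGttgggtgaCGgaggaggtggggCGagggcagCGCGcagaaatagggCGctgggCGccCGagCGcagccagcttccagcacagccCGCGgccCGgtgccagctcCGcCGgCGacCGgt
TRIML2: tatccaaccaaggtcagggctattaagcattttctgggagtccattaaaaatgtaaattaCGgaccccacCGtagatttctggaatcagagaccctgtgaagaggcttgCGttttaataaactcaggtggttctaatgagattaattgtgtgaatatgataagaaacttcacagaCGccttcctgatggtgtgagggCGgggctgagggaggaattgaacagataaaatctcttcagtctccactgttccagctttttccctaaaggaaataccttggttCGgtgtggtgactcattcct
SHISA3: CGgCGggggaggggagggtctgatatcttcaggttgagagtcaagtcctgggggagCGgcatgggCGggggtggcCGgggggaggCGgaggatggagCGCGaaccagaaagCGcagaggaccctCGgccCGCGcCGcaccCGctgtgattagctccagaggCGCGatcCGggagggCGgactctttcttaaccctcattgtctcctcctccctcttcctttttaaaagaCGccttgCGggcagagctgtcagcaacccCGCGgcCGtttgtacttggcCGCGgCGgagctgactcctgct

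The ABRAXAS1 promoter held 36 CG pairs and the GPAT3 promoter 25, so both sides of the border were rich in this pair. SHISA3 held 26 and TRIML2 held 6. The median over all 27305 promoters of the same 300 bases was 14. RefSeq promoters could be matched for 353 of the 413 genes, and 26 of these held 6 CG pairs or fewer, the TRIML2 promoter among them. The median of the matched promoters was 27. The letters TATAAA, searched on both strands, were in none of the 4 printed promoters, in 18 (5.10%) of the matched chromosome 4 promoters and in 11.95% of all promoters. The matched promoters belong to genes that passed the FPKM filter, and the 27305 were taken whatever their expression. The values of these sets are therefore not a contrast between chromosomes. Matches of letters describe the sequence and say nothing of a factor.

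Of the 413 genes, 271 (65.6%) were called higher and 84 (20.3%) lower in the KO libraries by limma (adjusted p under 0.05 over all 11716 genes), and 58 were not called. Over all tested genes 21.6% were called higher and 28.4% lower. The median log2 change, KO minus WT on log2(FPKM + 1), was 0.34 on chromosome 4 and -0.05 on the other chromosomes. In bulk libraries, fewer cells with a transcript and less of it per cell cannot be told apart. Genes that reached 1 FPKM in the mean of only 1 group were few: 16 in KO and not in WT, and 5 the reverse. Among the 16 are UGT8, TLR6, MAML3, LRP2BP and LINC01085, named below, and among the 5 are CPLX1 and DCAF4L1. Such genes were tested through the group where they are high, which favours the direction of their change. The lowest mean that passed was 1.01 FPKM and the highest that failed was 0.989 FPKM. Of all 1663 genes, 587 were listed at 0 in every library.

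**Figure D1:**
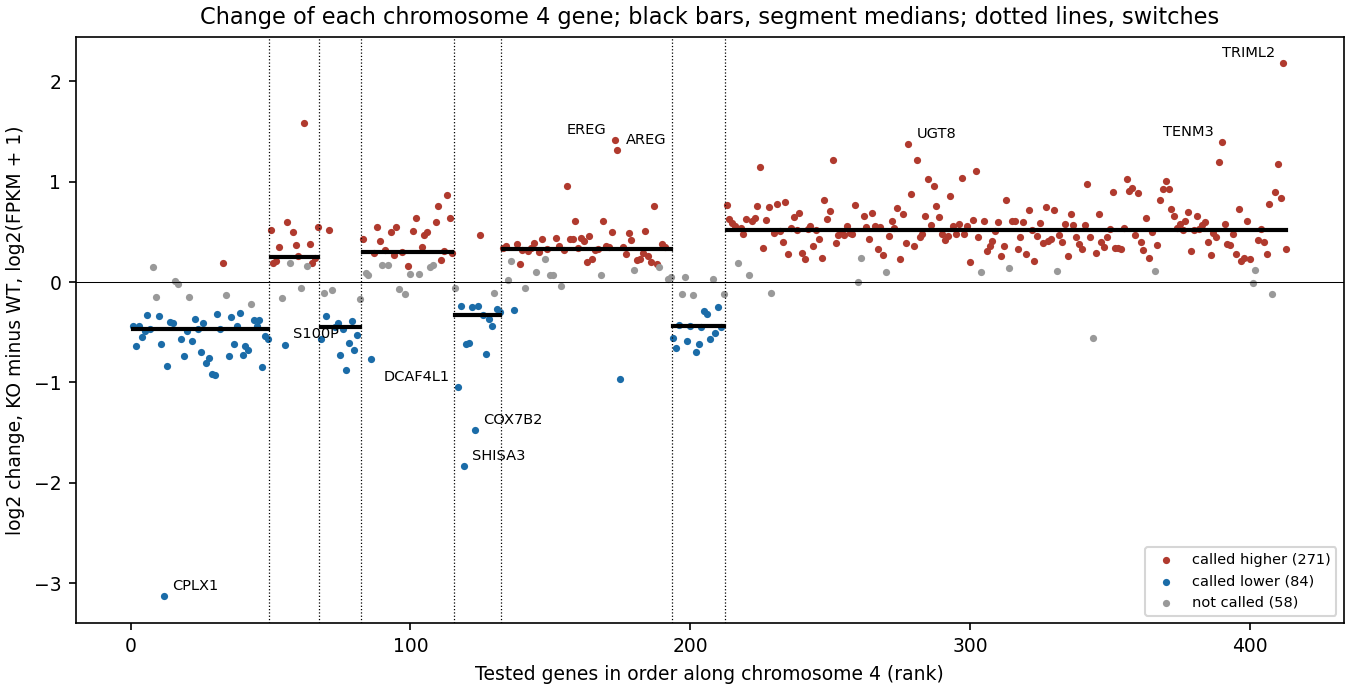
Log2 change of each of the 413 tested genes (y axis, KO minus WT on log2(FPKM + 1)) in their order along chromosome 4 (x axis, rank). Red points were called higher, blue lower and gray not called; black bars are segment medians, from -0.47 for the first to 0.52 for the last, and dotted lines are the 7 switches.

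In 5 Mb windows the chromosome spanned 38 windows, of which 31 held at least 5 tested genes. The window median was above 0 in 26 and below 0 in 5. The 5 lower windows were those that start at 0, 15, 40, 45 and 80 Mb. The first had a median of -0.47 over 49 genes, of which 41 were called lower and 1 higher. The window from 15 to 20 Mb had the same median to 2 decimals over 11 genes, and all 11 were below 0. The windows from 40 and 45 Mb had medians of -0.24 and -0.31, and the window from 80 Mb had -0.37. Not all lower windows were pure: that from 40 Mb held 3 genes called higher and 6 called lower, and a switch lies inside it. The window from 80 Mb held 2 called higher and 13 called lower, and the switch between ABRAXAS1 and GPAT3 lies inside it. In the window from 45 Mb, 1 was called higher and 8 lower.

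From 85 Mb to the end, all 17 windows with at least 5 tested genes were between 0.38 and 0.68. The highest was the window from 165 to 170 Mb, where all 12 tested genes were called higher. It holds MSMO1, an enzyme of cholesterol synthesis, and CPE, a carboxypeptidase that trims peptide hormones. CPE, the most abundant gene of that window, was at 14.2 and 13.3 FPKM in WT and at 27.1 and 30.2 FPKM in KO. The middle of the short arm was intermediate, with medians of 0.27 to 0.30 in the windows that start at 20, 25 and 35 Mb. The window from 10 to 15 Mb was nearest to 0, at 0.07, with 3 genes above and 3 below 0.

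Every one of the 31 windows had the same sign in all 4 pairs of a KO and a WT library. Within groups the window medians ranged from -0.10 to 0.05 for WT replicate 2 minus WT replicate 1 and from -0.01 to 0.09 for KO replicate 2 minus KO replicate 1. The window from 10 to 15 Mb, with a median of 0.07, was the only 1 of the 31 so close to 0. That median is within the KO range and above the WT range. Of the 6 tested genes of this window, 3 were called higher and 2 lower, and the switch between ZNF518B and RAB28 lies inside it.

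**Figure D2:**
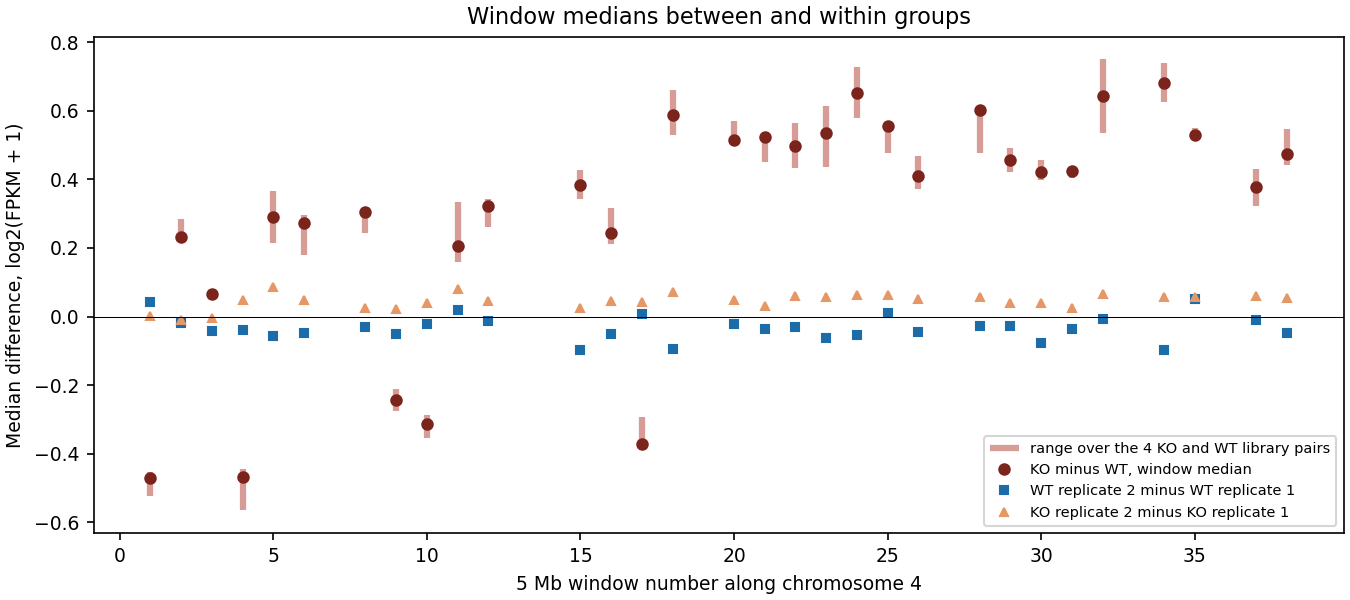
Median difference on log2(FPKM + 1) (y axis) for each 5 Mb window with at least 5 tested genes (x axis, window number along the chromosome). Dark circles are KO minus WT with the range over the 4 library pairs as bars, blue squares the 2 WT libraries and orange triangles the 2 KO libraries against each other; windows between the groups run from -0.47 to 0.68, and within groups from -0.10 to 0.09.

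To place the switches without windows, the changes in gene order were cut into segments of at least 10 genes by least absolute deviation, which gave 8 segments, the most that was allowed. With at least 5 genes and up to 25 segments allowed, the number of switches was again 7. The 4 lower segments held 100 genes over 19.7 Mb, of which 80 were called lower and 3 higher. The 4 higher segments held 313 genes over 159.7 Mb, of which 268 were called higher and 4 lower. In all, 391 of the 413 genes (94.7%) had the sign of their segment, a share that the cutting itself favours.

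The first segment, from ZNF595 to STX18 (0.0533 to 4.54 Mb as deposited), held 49 genes with a median of -0.47. It includes ATP5ME, a subunit of ATP synthase and its most abundant gene, at 145 and 160 FPKM in WT and 111 and 109 FPKM in KO. RNF4, a ubiquitin ligase for SUMO-modified proteins, was at 47.7 and 49.1 FPKM in WT and at 28.9 and 28.3 FPKM in KO. TACC3, a protein of the mitotic spindle, was at 99.1 and 102 FPKM against 72.7 and 72.1 FPKM. In each of these genes both KO libraries were below both WT libraries. Summed over the segment, fragments per 1000000 were 4335 and 4360 in WT and 3057 and 3056 in KO, a ratio of 0.703.

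The second segment, from EVC to ZNF518B (5.71 to 10.5 Mb), held 18 genes with a median of 0.25, 13 called higher and 1 lower. MRFAP1 had 149 and 157 FPKM in WT and 193 and 198 FPKM in KO. WDR1, which helps cofilin take actin filaments apart, had 162 and 152 FPKM in WT and 183 and 186 FPKM in KO. Its call was lost without either KO library. The segment's summed fragments per 1000000 were 1.27 times the WT mean.

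The third segment, from RAB28 to LCORL (13.4 to 18.02 Mb), held 15 genes with a median of -0.45, 11 called lower and 1 higher. NCAPG, a subunit of condensin, the complex that compacts mitotic chromosomes, had 54.3 and 53.4 FPKM in WT and 36.4 and 37.9 FPKM in KO. It shares exon bases with LCORL, so fragments of the overlap cannot be assigned to either with certainty. LCORL itself had 1.87 and 1.77 FPKM in WT and 1.48 and 1.56 FPKM in KO and was not called. The fourth segment, from SLIT2 to LIMCH1 (20.3 to 41.7 Mb), held 33 genes with a median of 0.30, 22 called higher and 1 lower. RBPJ, the DNA-binding partner of Notch, had 21.8 and 21.0 FPKM in WT and 31.4 and 31.9 FPKM in KO.

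The fifth segment, from TMEM33 to OCIAD2 (41.9 to 48.9 Mb), held 17 genes with a median of -0.33, 14 called lower and 1 higher. The most abundant gene of the window from 45 Mb, OCIAD2, had 53.9 and 56.8 FPKM in WT and 44.3 and 45.5 FPKM in KO. The sixth segment, from DCUN1D4 to PAQR3 (51.8 to 78.9 Mb), held 61 genes with a median of 0.32, 46 called higher and 2 lower. IGFBP7, a secreted protein that binds insulin-like growth factors, had 62.1 and 64.0 FPKM in WT and 122 and 125 FPKM in KO. It shares exon bases with POLR2B, whose own change was 0.32.

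The seventh segment, from ANTXR2 to ABRAXAS1 (79.9 to 83.5 Mb), was the shortest at 3.58 Mb and held 19 genes with a median of -0.44, 14 called lower and none higher. HPSE, the enzyme that cuts heparan sulfate, had 7.22 and 6.50 FPKM in WT and 4.41 and 4.68 FPKM in KO. The abundant RNA-binding protein gene HNRNPD was nearer to 0, at 152 and 153 FPKM in WT and 137 and 143 FPKM in KO, and was not called. The eighth segment, from GPAT3 to FRG1 (83.5 to 190.0 Mb), held 201 genes with a median of 0.52, 187 called higher and none lower. ANXA5, which binds phosphatidylserine, had 170 and 176 FPKM in WT and 309 and 317 FPKM in KO. H2AZ1, a histone variant, had 305 and 319 FPKM in WT and 442 and 450 FPKM in KO.

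Summed over the eighth segment, fragments per 1000000 were 9612.5 and 9121 in WT and 14211 and 14789 in KO, a ratio of 1.55. The segments that start at SLIT2 and DCUN1D4 had ratios of 1.27 and 1.29. Those that start at RAB28, TMEM33 and ANTXR2 had ratios of 0.707, 0.797 and 0.813. In all 8 segments the median had 1 sign in all 4 pairs of a KO and a WT library.

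**Figure D3:**
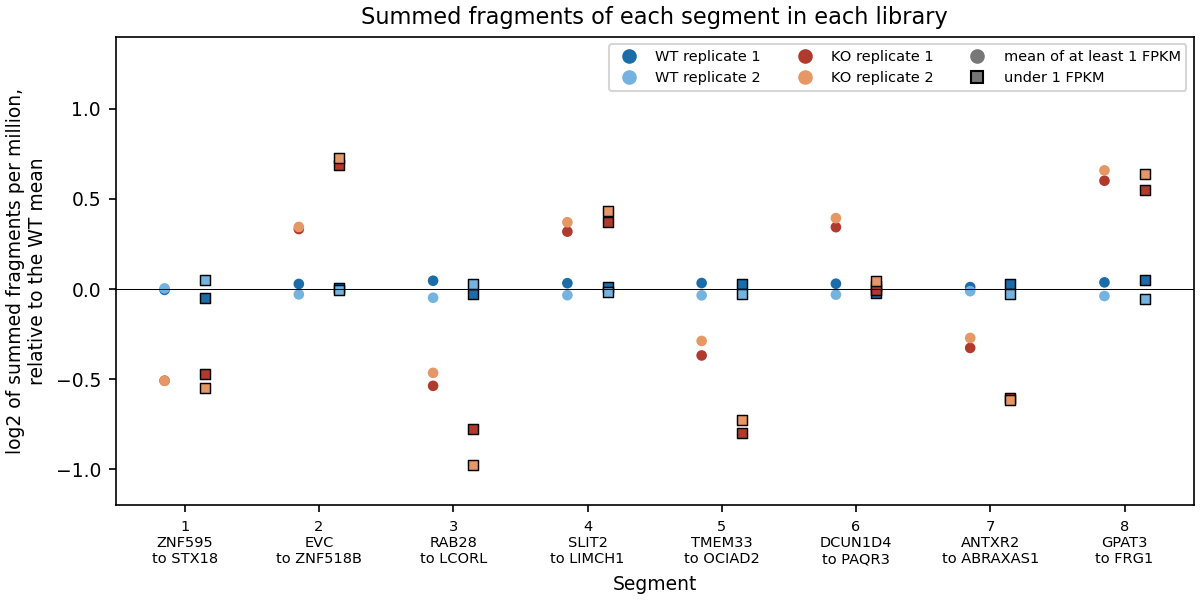
Summed fragments per 1000000 of each segment (x axis, named by its first and last tested gene) in each library, as log2 relative to the WT mean (y axis). Circles are the tested genes and squares the genes under 1 FPKM; both KO libraries lie apart from both WT libraries in every segment for the circles, while the squares of the sixth segment lie together.

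At the seventh switch no gene lies between ABRAXAS1 and GPAT3 in the table, and the step between the segment medians was 0.96. ABRAXAS1 had 7.78 and 7.92 FPKM in WT and 7.07 and 7.20 FPKM in KO, a change of -0.12 that was not called. It shares exon bases with MRPS18C, a mitochondrial ribosomal protein gene, which had 23.1 and 24.9 FPKM in WT and 16.2 and 18.5 FPKM in KO. GPAT3, on the other side, had 6.11 and 5.98 FPKM in WT and 10.4 and 11.5 FPKM in KO. The median of the 5 genes before the switch was -0.25 and that of the 5 after it 0.59.

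The other 6 switches had wider gaps. Between LIMCH1 and TMEM33 the gap was 0.235 Mb with 3 untested genes in it. LIMCH1, a regulator of nonmuscle myosin, had 17.6 and 15.7 FPKM in WT and 20.2 and 20.9 FPKM in KO, and its call was lost without KO replicate 2. TMEM33, a protein of the endoplasmic reticulum, had 10.2 and 10.6 FPKM in WT and 9.89 and 10.1 FPKM in KO and was not called. Between PAQR3 and ANTXR2 the gap was 0.962 Mb with 9 untested genes. PAQR3 was not called, at 2.54 and 2.57 FPKM in WT and 2.53 and 2.86 FPKM in KO, whereas ANTXR2, an anthrax toxin receptor, went from 44.2 and 40.3 to 27.8 and 29.1 FPKM.

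Gaps at the remaining switches were 1.17 Mb between STX18 and EVC, 2.23 Mb between LCORL and SLIT2, 2.91 Mb between ZNF518B and RAB28 and 2.94 Mb between OCIAD2 and DCUN1D4. STX18, a SNARE protein of the endoplasmic reticulum, had 22.04 and 23.7 FPKM in WT and 14.4 and 16.0 FPKM in KO. EVC, a ciliary protein of hedgehog signaling, had 2.62 and 2.16 FPKM in WT and 3.90 and 3.82 FPKM in KO. Neither pair overlapped between groups, and the 2 genes lay on opposite sides of 0. SLIT2, a secreted ligand of ROBO receptors, had 2.90 and 2.17 FPKM in WT and 3.61 and 3.83 FPKM in KO, a change of 0.43. The change was 0.27 without WT replicate 2, and the call was lost without KO replicate 2. Across 11 other settings, each switch lay within 3 genes of its place in at least 8, and that between ABRAXAS1 and GPAT3 in all 11.

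Genes under 1 FPKM took no part in placing the switches. Of these, 112 had at least 100 fragments over the 4 libraries. In the lower segments 14 of 16 had a lower KO than WT mean, with a median log2 ratio of -0.59. In the higher segments 75 of 96 had a higher KO mean, with a median log2 ratio of 0.53. Leaving out genes that share exon bases with another gene gave 10 of 12 and 65 of 84. On the other chromosomes 45.9% of 2554 such genes were higher, with a median of -0.06. In the sixth segment the summed fragments of genes under 1 FPKM had a KO to WT ratio of 1.01, against 1.29 for its tested genes. Of its 15 such genes with at least 100 fragments, 11 were higher, with a median log2 ratio of 0.13.

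The blocks were also set beside those of other chromosomes. The window medians of chromosome 4 had an SD of 0.334, against 0.155 over the 493 windows of all other chromosomes. Over 0.4 lay 16 of the 31 windows of chromosome 4 and 9 of the 493 others. Under -0.3 lay 4 and 6. Chromosomes X and 10 came next, with SDs of 0.266 and 0.262 and with 6 and 3 switches. Chromosome 15 was higher as a whole, with a median of 0.28 and no window below 0.

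**Figure D4:**
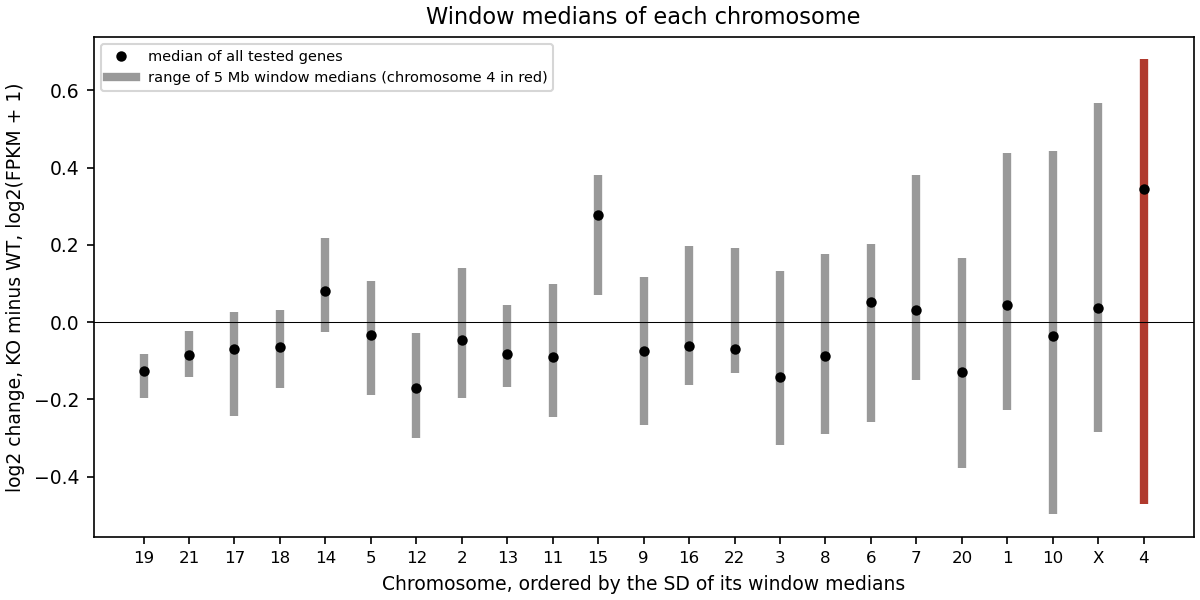
Range of the 5 Mb window medians (bars) and median log2 change of all tested genes (points) for each chromosome, in order of the SD of its window medians (x axis); the y axis is KO minus WT on log2(FPKM + 1). The bar of chromosome 4, in red, runs from -0.47 to 0.68.

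Grouped by role, the 211 tested genes of 9 lists mostly moved with their segment. The counts of each list stand beside the shares of the whole chromosome, 65.6% called higher and 20.3% lower. Over all tested genes the shares were 21.6% and 28.4%. Whether any list differs from the chromosome was not tested. Of 12 tested chemokines and growth factor ligands, 9 were called higher and 2 lower, with a median change of 0.46 (all tested genes -0.04). All 9 lay in higher segments, among them EREG and AREG, ligands of the EGF receptor, and PDGFC, a platelet-derived growth factor. PDGFC had 14.4 FPKM in both WT libraries and 27.1 and 28.5 FPKM in KO. FGF5, in the seventh segment, had 4.54 and 4.45 FPKM in WT and 2.80 and 3.37 FPKM in KO. The other lower member, LRPAP1, is a chaperone of lipoprotein receptors rather than a ligand, with a change of -0.44.

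Only 4 of 18 genes in the receptor list were tested, and the median change was 0.19. TLR6, a receptor of bacterial lipopeptides, had 0.765 and 0.682 FPKM in WT and 1.48 and 1.42 FPKM in KO. The other called members, TNIP2 with a change of -0.62 and LRP2BP with 0.40, are an NF-kB regulator and a binding partner of a lipoprotein receptor. LRP2BP shares exon bases with ANKRD37 and SNX25. With a pseudocount of 0.1 in place of 1, TLR6 and LRP2BP had changes of 0.91 and 0.73.

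Of 34 tested genes for chromatin and transcription, 20 were called higher and 12 lower, with a median of 0.25. The split followed the segments: all 12 in the lower segments were called lower, and 20 of 22 in the higher segments were called higher. Over all genes of these segments, 80 of 100 were called lower in the lower ones and 268 of 313 higher in the higher ones. The segments were cut from the same changes, which favours such a split. NELFA, a subunit of the factor that pauses RNA polymerase II, had 14.2 and 16.1 FPKM in WT and 8.87 and 8.17 FPKM in KO, and shares exon bases with NICOL1. PRDM8, a PR-domain repressor in the seventh segment, had 24.99 and 25.3 FPKM in WT and 15.4 and 15.9 FPKM in KO. On the long arm, the chromatin remodelers SMARCAD1 and SMARCA5 had changes of 0.75 and 0.72. SMARCA5 was at 14.9 and 13.8 FPKM in WT and at 23.6 and 25.1 FPKM in KO. MAML3, a Notch coactivator, had a change of 0.72 (1.25 with a pseudocount of 0.1) and shares exon bases with MGST2.

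Among 25 cell cycle and DNA repair genes, 17 were called higher and 4 lower (median 0.34). Genes of the mitotic apparatus were on both sides. TACC3 and NCAPG were lower with their segments, while CENPE, a kinetochore motor, and PLK4, the kinase of centriole duplication, were higher on the long arm. CENPE had 15.2 and 13.5 FPKM in WT and 21.7 and 23.6 FPKM in KO, and PLK4 had 13.9 and 13.5 FPKM against 20.7 and 22.1 FPKM. SLBP, which binds the ends of histone mRNA, had 23.4 and 24.2 FPKM in WT and 15.2 and 15.8 FPKM in KO. CCNG2, a cyclin linked to arrest, was higher by 0.76.

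The list written for ribosomes, RNA processing and translation had 29 tested genes, 21 called higher and 2 lower (median 0.40). It also holds 5 genes of other roles (MRFAP1, QDPR, RCHY1, PPP3CA and PAPSS1), and without them 17 of 24 were called higher and 1 lower, with the same median to 2 decimals. The lower ones were NOP14, a factor for the small ribosomal subunit, and QDPR, which recycles the cofactor tetrahydrobiopterin. NOP14 had 59.2 and 55.6 FPKM in WT and 34.5 and 36.5 FPKM in KO, and shares exon bases with its antisense gene NOP14-AS1. Among the higher ones was LARP7, which stabilizes the 7SK RNA, at 13.5 and 14.5 FPKM against 23.3 and 24.8 FPKM. PPP3CA, a catalytic subunit of the phosphatase calcineurin and no RNA gene, had a change of 0.68. The ribosomal protein genes RPL9, RPL34 and RPS3A had changes of 0.15, 0.24 and 0.45, and only RPS3A was called. The change of RPL34 was 0.09 without WT replicate 1 and 0.39, and called, without WT replicate 2. Such genes have many processed copies, so how their fragments were assigned is uncertain.

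Of 36 genes of mitochondria and metabolism, 19 were called higher and 10 lower (median 0.28). In the lower segments 10 of 13 were called lower and 1 higher, and in the higher segments 18 of 23 were called higher and none lower. The segments as a whole had 80 of 100 called lower and 268 of 313 called higher. LETM1, of the inner mitochondrial membrane, had 24.3 and 22.7 FPKM in WT and 14.01 and 14.3 FPKM in KO. PPA2, the mitochondrial pyrophosphatase, had 14.7 and 15.6 FPKM in WT and 35.2 and 37.5 FPKM in KO. The 2 groups of each gene did not overlap. AGA, a lysosomal enzyme that cleaves asparagine-linked sugars, had 3.12 and 2.81 FPKM in WT and 7.76 and 8.42 FPKM in KO.

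The secretory and vesicle list had 22 genes called higher and 4 lower of 29 (median 0.34). GAK, a kinase that helps uncoat clathrin vesicles, had 19.2 and 21.4 FPKM in WT and 11.1 and 10.8 FPKM in KO. SEC24D, a cargo adaptor of COPII vesicles, had 12.5 and 11.8 FPKM in WT and 25.2 and 26.6 FPKM in KO. In the cytoskeleton and matrix list, 16 of 22 were called higher and 3 lower (median 0.35). The atypical cadherins FAT1 and FAT4 were both higher, FAT1 with 55.8 and 39.7 FPKM in WT and 82.0 and 87.4 FPKM in KO. The WT libraries of FAT1 differed widely, and its call was lost without either KO library.

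Of 20 genes of innate immunity, interferon response and cell death, 14 were called higher and 3 lower (median 0.45). For the chromosome as a whole, 65.6% were called higher and 20.3% lower. DDX60, an interferon-induced helicase, had 1.92 and 1.74 FPKM in WT and 4.18 and 4.58 FPKM in KO. TRIM2, a ubiquitin ligase, had a change of 0.90. The lower ones were PLAC8, HPSE and NFXL1, all in lower segments, and PLAC8 had 21.4 and 22.1 FPKM in WT and 14.4 and 14.3 FPKM in KO. Over the 9 lists, 1 gene of the lower segments, ATP10D, was called higher, and no gene of the higher segments was called lower.

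The second level is the distance of a gene from its neighbours, taken as its log2 change minus the median of up to 10 tested genes on each side. The median absolute distance was 0.17 (all tested genes 0.15), against a median absolute change of 0.45 (all 0.18). Within 0.25 of the local median lay 265 genes (64.2%), against 71.0% of all tested genes. A gene was counted as off when the distance was at least 0.5 and the KO libraries did not overlap the WT libraries. On chromosome 4, 26 genes (6.30%) were off above and 14 (3.39%) below. Over all tested genes the shares were 3.95% and 3.36%. Just inside the limit above was WDFY3 at 0.50, and just outside SMIM14, also 0.50 when rounded. Below, QDPR at -0.52 was inside and FAM200B at -0.48 outside.

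Near a switch the neighbours come from both sides, so a gene there can be off without standing apart from its own segment. EVC, SLIT2, GPAT3, RAB28, PRDM8 and ANTXR2 were off by their neighbours and within 0.5 of their segment's median. Measured against the segment median, 21 genes were above and 10 below, and 29 genes were off by both measures.

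The gene furthest above was TRIML2, a member of the tripartite motif-like family near the long-arm end. It had 2.01 and 1.94 FPKM in WT and 12.2 and 12.8 FPKM in KO, 6.30 times the WT mean, and lay 1.76 above a local median of 0.42. Both KO libraries were far above both WT libraries. This is the gene whose CG-poor promoter is printed above. The next protein-coding genes were EREG and AREG, neighbours on the long arm. EREG had 8.18 and 7.08 FPKM in WT and 21.98 and 21.97 FPKM in KO, 1.10 above its local median. AREG had 29.7 and 27.1 FPKM in WT and 70.6 and 73.5 FPKM in KO, 0.98 above.

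The chemokine genes CXCL8, CXCL1, CXCL3 and CXCL2 precede EREG and AREG in the same stretch and were nearer to the local level. Their changes were 0.07, 0.61, 0.36 and 0.34, and CXCL8 was not called. CXCL1, CXCL2 and CXCL3 are close paralogs, so how fragments from sequence they share were split among them is uncertain.

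TENM3, a cell-adhesion protein of the teneurin family, had 7.59 and 5.88 FPKM in WT and 18.8 and 19.6 FPKM in KO, 0.91 above its local median. UGT8, which makes galactosylceramide, had 0.523 and 0.448 FPKM in WT and 2.84 and 2.87 FPKM in KO, 5.87 times the WT mean. On log2(FPKM + 1) this was 1.38, since the added 1 shrinks the change of low genes, and with 0.1 added it was 2.34. The WT level of UGT8 was under the filter, so it was tested only through its KO level. CYP4V2, a fatty acid hydroxylase, had 2.20 and 2.06 FPKM in WT and 5.99 and 6.12 FPKM in KO. RBM47, an RNA-binding protein of the short arm, had 1.47 and 1.25 FPKM in WT and 3.31 and 3.28 FPKM in KO.

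Also above were 2 protein-coding genes called higher inside lower segments. ZFYVE28, an endosomal FYVE-domain protein, had 5.11 and 5.59 FPKM in WT and 6.25 and 6.26 FPKM in KO, while its local median was -0.55. Its call was lost in 3 of the 4 fits without 1 library, those without WT replicate 1, KO replicate 1 and KO replicate 2. ATP10D, a lipid flippase, had 6.27 and 4.93 FPKM in WT and 7.68 and 8.53 FPKM in KO, with a local median of -0.28.

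CPLX1, a complexin that regulates SNARE-driven vesicle fusion, was furthest below. It had 8.28 and 9.53 FPKM in WT, from 847 and 486 fragments, and 0.0272 and 0.245 FPKM in KO, from 3 and 29 fragments. The KO mean was 0.0153 times the WT mean. The 2 KO libraries differed from each other far more than the WT libraries did, and both were far below WT. Its distance from the local median was -2.68, its local median being -0.45. The log2 change of -3.13 was -5.42 when 0.1 was added in place of 1 and -6.59 in voom.

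A group of 3 genes in segment 5 followed. SHISA3, of a family that holds Wnt and FGF receptors inside the cell, had 14.2 and 15.5 FPKM in WT and 3.40 and 3.48 FPKM in KO, 0.232 times the WT mean and 1.60 log2 units under its local median of -0.24. Unlike TRIML2, its printed promoter is rich in CG pairs. COX7B2, a paralog of a cytochrome c oxidase subunit, had 10.4 and 11.0 FPKM in WT and 3.19 and 3.22 FPKM in KO. DCAF4L1 had 1.73 and 1.78 FPKM in WT and 0.344 and 0.326 FPKM in KO, a change of -1.05 that was -2.10 with a pseudocount of 0.1.

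S100P, a calcium-binding protein of the S100 family, was lower inside the higher second segment, with 9.59 and 11.0 FPKM in WT and 6.44 and 6.23 FPKM in KO and a local median of 0.19. PDLIM5, TRIM61 and PDLIM3 were off below in another way: they lay near 0 where their neighbours were higher, and none was called. PDLIM5, a PDZ and LIM domain protein of actin filaments, had 22.1 and 19.9 FPKM in WT and 19.1 and 19.7 FPKM in KO, while its local median was 0.61. TRIM61 had 2.17 and 2.57 FPKM in WT and 2.66 and 2.62 FPKM in KO.

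**Figure D5:**
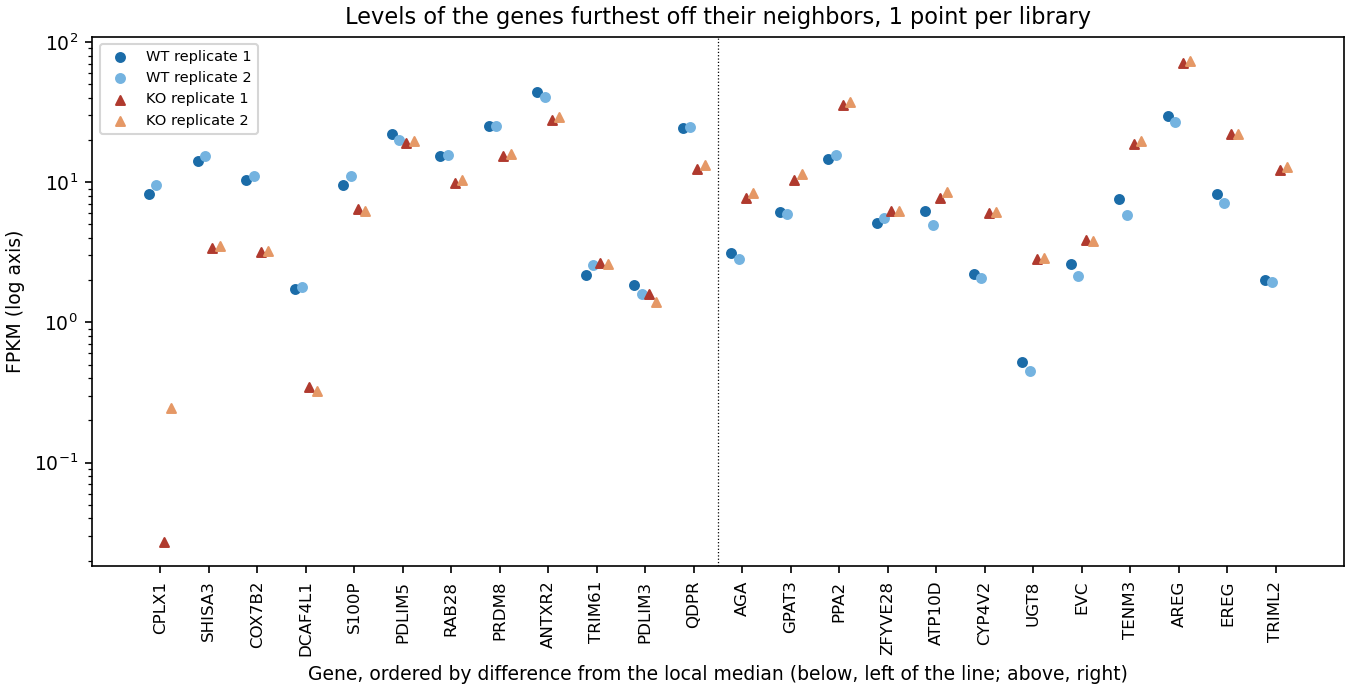
FPKM in each library (y axis, log scale; 1 point per library, blue WT, red and orange KO) for the 12 protein-coding genes furthest below the local median (left of the line) and the 12 furthest above (right). CPLX1 falls to 0.0272 and 0.245 FPKM in KO, and TRIML2 stands at 12.2 and 12.8 FPKM against 2.01 and 1.94 in WT.

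By segment, 14 of the 26 genes above lay among the 201 of the eighth segment and 4 among the 61 of the sixth. None lay in the seventh. Of the 14 below, 3 lay among the 17 genes of segment 5. The genes off above had a median length of 5653.5 bases and those off below 2061.5, against 4833 for all tested genes of the chromosome. Across the 413 genes the distance from the local median had a Spearman correlation of 0.15 with gene length, against 0.19 over all tested genes. Length also went with a difference between the WT libraries: WT replicate 2 minus WT replicate 1 had a correlation of -0.45 with length, so long genes were lower in WT replicate 2, which is visible in TENM3, FAT1 and FAT4. The part of length in the distances was not tested. These correlations are over genes of the same 4 libraries and describe them only.

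The lower segments held genes of a higher level, with a median WT mean of 10.4 FPKM against 5.45 FPKM in the higher segments. This did not hold for each: the lower segment from RAB28 had 6.42 FPKM, below the higher ones from EVC and SLIT2 at 7.17 and 6.52 FPKM. Their median gene lengths were 4651.5 and 5044 bases. Median CG pairs per promoter were 31 and 26. The distance from the local median had a Spearman correlation of -0.01 with the CG pairs of the promoter over the matched genes, and genes off above and below had medians of 22 and 23.5. Fragments that fit a neighbour as well may blur single genes, since 119 of the 413 genes share exon bases with another gene, 57 of them with another tested gene.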

How the data were processed

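The 2 WT and 2 KO libraries were grouped by their titles. The authors deposited FPKM values with exon coordinates and gene lengths per the file headers. STAR, Subread and DESeq2 are named without versions per the submitters' processing notes; roles, strand setting, build and annotation have no entry in those notes (not given in the sources used here). Of the table's columns, 0 belong to other samples. FPKM times length gave whole fragments for 100% of values (tolerance 0.001), which set the depths: 3 fragments on 1 kb were 0.133 FPKM in WT replicate 2 and 0.0575 to 0.0664 FPKM in the others, counting error only. Symbols came from RefSeq on GRCh38.p14 by Entrez ID. All 1592 chromosome 4 genes with a symbol were compared with it, and 97.8% lay within 1000 bp.

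Changes came from limma 3.58.1 (R 4.3.3; trend and robust) on log2(FPKM + 1) over all 11716 genes, Benjamini-Hochberg threshold 0.05. The limma fit was tested on simulated data with 200 changed genes, and the segmentation and local median on a made series with known steps. Segments were found in Python 3.11.15. Members, role lists and tests were chosen with earlier results of these data known. Names come from a rule: the 12 protein-coding genes furthest off each way, genes beside switches, the most abundant gene of each window, up to 3 called members of each list each way, and RIOX2. Outside it, the 4 CXCL genes, the genes named for overlaps, the genes at the limit of the distance rule, MSMO1, genes of other roles in a list, noncoding genes and the cell line markers were chosen after their values were seen.

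Same-numbered replicates correlated at -0.225 in their deviations from group means, so numbers were not treated as pairs. Alternatives were other pseudocounts, filters, scalings, window and neighbour sizes, voom, a replicate block and leaving out each library.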

Additional observations from a re-analysis of the deposited data

How the results depend on the processing

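Calls were 219 to 279 higher and 76 to 91 lower without 1 library, 163 higher with a filter at 5 FPKM, which tests fewer genes, and 279 higher and 88 lower with voom. The replicate block gave 267 higher and 85 lower, and changed 2 calls among the named genes: ZFYVE28 was lost and RPL34 gained. A crossed block, added after the data were seen, gave 277 and 86. The median change of 0.34 was 0.31 to 0.37 without 1 library, 0.41 with a pseudocount of 0.1, 0.38 with median-of-ratios scaling and 0.017 with no filter, which adds genes near 0. Windows below 0 numbered 5 without any 1 library, 8 with no filter and 3 with 10 Mb windows. The 7 switches were 3 with no filter and 7 under the 10 other settings. Genes off above numbered 25 to 33 without 1 library, 40 with a pseudocount of 0.1, 100 with no filter and 14 at 5 FPKM. Genes off below numbered 12 to 20, 31 with no filter and 35 with 20 neighbours on each side, where the neighbours span more switches. PAQR3, not called, turned from 0.054 to -0.011 without KO replicate 2 (range without 1 library -0.011 to 0.119). Without WT replicate 2, 6 named genes gained a call: LCORL, RPL9, PDLIM5, RPL34, TRIM61 and PDLIM3. Without KO replicate 2, 8 lost theirs, among them WDR1, SLIT2, LIMCH1 and FAT1. Where no construction is named, the cause was not tested. WT replicate 2 has the least depth and limits low genes most.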

Other observations

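Of 29 tested genes on chromosome 4 that are not protein-coding, 14 (48.3%) were called higher and 11 (37.9%) lower, with a median log2 change of 0.21. The shares over all 413 genes were 65.6% and 20.3%. The sign of their segment was found in 24 of the 29 (82.8%), against 94.7% of all 413. AFAP1-AS1, an antisense lncRNA, had 3.43 FPKM in both WT libraries and 12.3 and 12.2 FPKM in KO, 3.57 times the WT mean and 1.38 log2 units above its local median. It shares exon bases with AFAP1, which had 17.5 and 15.8 FPKM in WT and 18.7 FPKM in both KO libraries, and without a stated strand setting fragments of the overlap cannot be told apart.

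LINC02562 was lower between AREG and RCHY1, where its neighbours were higher, with 3.36 and 3.29 FPKM in WT and 1.15 and 1.28 FPKM in KO, from 31 to 84 fragments per library. DANCR, a lncRNA gene of the sixth segment, had 20.8 and 24.2 FPKM in WT and 18.3 and 18.2 FPKM in KO. SNORA24 had 2.70 and 2.37 FPKM in WT and 6.57 and 7.90 FPKM in KO, from 7 to 54 fragments. LINC01085 was called higher inside the lower segment from RAB28 to LCORL, with 0.826 and 1.10 FPKM in WT and 1.93 and 1.68 FPKM in KO. MIR573 rested on 5 to 11 fragments per library on 99 bases, a depth at which its lower value in KO is not a reliable measurement.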
